A study of Homo sapiens with 6 samples.

Results

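The RNAs described here are the antisense RNAs that KYSE70 cells express well enough to be followed and that carry the name of a partner gene. They were chosen by name and by measured level, as every row of the count table whose symbol ends in -AS and a digit and whose mean normalized count over the 6 libraries was at least 50, which gave 235 of the 58884 rows. The symbol before -AS names the partner, and 232 of the 235 had a row for it. The level that chose them is the mean over both cell lines, so levels are given as description and the difference between the lines is what was tested.

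KYSE70 is an established line of human esophageal squamous cell carcinoma (ESCC) that carries a mutant NRF2, with a cysteine for a tryptophan in the region KEAP1 binds. NRF2null-KYSE70 was made from it with CRISPR-Cas9 and a guide against the second exon of NFE2L2, the gene of NRF2, and is a single expanded clone with a frameshift. Both lines were untreated, were grown in RPMI1640 medium with fetal bovine serum, and gave 3 RNA-seq libraries each, of 52072801 to 63975313 reads counted in genes. NRF2 is a transcription factor that binds antioxidant response elements (AREs), and KEAP1 directs it to degradation. The paper reports a faint, smaller NRF2 band in NRF2null-KYSE70 and states that NRF2 was not removed completely. The difference between a clone and its parental line, and the disruption of NRF2, cannot be told apart with 1 clone. The labels do not say whether the libraries of a line came from separate cultures, so p-values measure the spread between libraries, which may be technical.

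An antisense RNA is transcribed from the strand opposite to its partner. Many start beside the partner's promoter and run away from it, others begin inside or beyond the partner and run through its body. Some act on the neighbouring gene by the act of transcription or through chromatin, some, such as the cytoplasmic OIP5-AS1 (Cyrano, which promotes decay of miR-7), have functions of their own, and for most none is known. The nuclear exosome and the Integrator complex keep many such transcripts short-lived.

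NFE2L2 itself read 9839, 9906 and 10040 normalized counts in the KYSE70 libraries and 5803, 6041 and 6434 in the NRF2null-KYSE70 libraries. The change in NRF2null-KYSE70 was -0.71 on the log2 scale (adjusted p = 9.37e-08, SE 0.049, limma with Benjamini-Hochberg adjustment over all tested genes), and a frameshift need not remove a transcript. The 10 squamous markers, TP63 and the basal keratins among them, were all expressed, with summed counts of 353382 to 359562 in KYSE70 and 255219 to 265553 in NRF2null-KYSE70. KRT5 makes up most of the sum, and KRT6A, KRT14, KRT17 and SOX2 were higher, not lower, in every NRF2null-KYSE70 library. The 7 fibroblast markers summed to 1384 to 1618 and 485 to 638, with 2 of the 7 at a mean of 50 or more, the 5 leukocyte markers to 0 to 10.5 and 40.2 to 47.9, and the 3 endothelial markers to 133 to 149 and 275 to 450. These sums moved with the lines and their part in the results below was not tested. In bulk RNA, fewer cells of a kind and less RNA per cell cannot be told apart.

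Of the 235 antisense RNAs, 28 fell and 11 rose in NRF2null-KYSE70, a rise or fall being an adjusted p under 0.05 together with a log2 fold change of at least 1 in size. The largest rises were of HHIP-AS1, ZFPM2-AS1 and SLC44A3-AS1, and the largest falls were of MSC-AS1, FEZF1-AS1 and PAXIP1-AS2. Of the 201 partners tested 21 passed, and the antisense RNA and its partner did not change by the same amount in 40 of 204 pairs. The 39 called antisense RNAs were 16.6% of the 235, beside 14.7% of all 15994 genes tested. Of the 39, 18 were among the 27 RNAs with a mean under 50 in 1 line, which entered through the other line. The remaining 21 were among the 208 with a mean of at least 50 in both lines. Falls made up most of the 39, where the background is 7.43% of genes lower and 7.23% higher. The median change on the log2 scale was -0.17 over the antisense RNAs, -0.0070 over all genes tested and 0.10 over the partners. It was -0.19 over 668 other long noncoding RNAs at the same minimum level. Of these 146 passed (21.9%), 89 lower and 57 higher, so falls were in excess there too. At an adjusted p under 0.05 with no minimum change, 81 antisense RNAs were lower and 37 higher (background 28.3% and 29.3% of genes, 57.6% in all), and 142 of the 201 partners passed that rule, 58 lower and 84 higher.

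**Figure D1:**
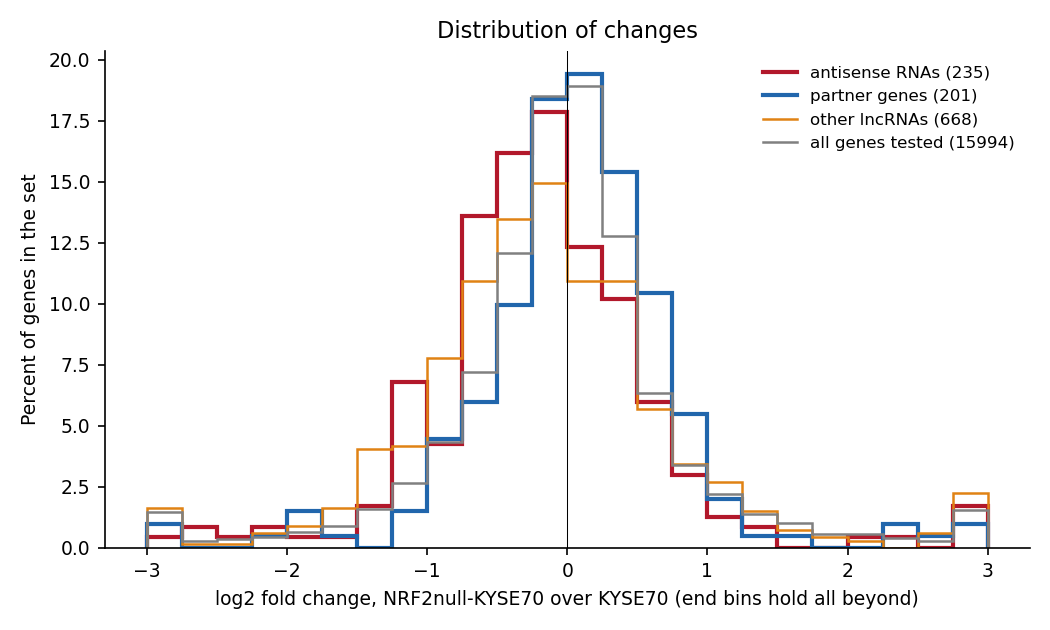
Percent of genes (y axis) by log2 fold change between the lines (x axis, bins of 0.25) for the 235 antisense RNAs, 201 partner genes, 668 other long noncoding RNAs and all 15994 genes tested. The antisense RNAs and the other long noncoding RNAs lie mostly to the left of 0, with medians of -0.17 and -0.19, and the partners slightly to the right, with a median of 0.10.

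The position of these RNAs, read from the GENCODE v44 annotation of hg38, bears on what their counts can hold. In 147 pairs some annotated start of the antisense RNA lay within 1 kb of one of the partner's starts on the other strand, here called head to head. A further 81 overlapped the partner's body with starts farther apart, 4 lay beside the partner (SVIL-AS1, FOXD2-AS1, IGFL2-AS1 and DNAJC9-AS1), and 3, HOXC-AS2, HOXC-AS3 and RPARP-AS1, had no partner row. Exons of 192 antisense RNAs overlapped an exon on the opposite strand. Over all 235, including the 43 with no such overlap, the median was 8.03% of exon bases. The largest share was 95.0%, in EML2-AS1. The paper names the NEBNext Ultra RNA library kit and no step that keeps the strand, and counting by strand is not stated either. Within those overlaps reads of the antisense RNA and of the opposite gene therefore cannot be told apart. The same holds for unspliced partner reads in the 198 whose exons lie at least partly in the partner's body. The 43 whose exons face no exon on the opposite strand had 8 calls, 5 lower and 3 higher, and a median log2 fold change of 0.13. They were not chosen for lying outside the partner's body, and BRWD1-AS2 among them lies at least partly inside it. The current annotation classes 229 of the 235 as long noncoding RNA and has renamed 19, of which 13 are now called divergent transcripts.

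RefSeq (GRCh38.p14) gave a window of 250 bases before to 50 bases after the start for 182 of the 235 antisense RNAs. The windows of 4 called antisense RNAs are shown without any stretch that lies in an exon of a protein-coding transcript. HHIP-AS1 and TDRKH-AS1 rose together with their partners, PAXIP1-AS2 fell while its partner did not, and UNC5B-AS1 holds both motifs that were searched for. In the first 3, capitals mark the bases from the start onward. In UNC5B-AS1 they mark the motif matches, TGACTCA, 141 bases before the start, and TGACATTGC, 77 bases before it. The windows are chr4:144645970-144646155 (minus strand), chr1:151790523-151790798 (plus strand), chr7:154928267-154928566 (plus strand) and chr10:71218179-71218478 (minus strand).
HHIP-AS1: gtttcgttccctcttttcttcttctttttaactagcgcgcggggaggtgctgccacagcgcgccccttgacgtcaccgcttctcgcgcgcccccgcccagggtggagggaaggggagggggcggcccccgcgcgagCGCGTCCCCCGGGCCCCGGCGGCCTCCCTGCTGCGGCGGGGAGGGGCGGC
TDRKH-AS1: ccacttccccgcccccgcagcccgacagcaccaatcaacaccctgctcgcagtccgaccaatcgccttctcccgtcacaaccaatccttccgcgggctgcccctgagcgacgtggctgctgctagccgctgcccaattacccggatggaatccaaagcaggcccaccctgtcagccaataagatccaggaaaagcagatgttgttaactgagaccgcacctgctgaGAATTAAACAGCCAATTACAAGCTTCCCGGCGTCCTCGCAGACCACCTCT
PAXIP1-AS2: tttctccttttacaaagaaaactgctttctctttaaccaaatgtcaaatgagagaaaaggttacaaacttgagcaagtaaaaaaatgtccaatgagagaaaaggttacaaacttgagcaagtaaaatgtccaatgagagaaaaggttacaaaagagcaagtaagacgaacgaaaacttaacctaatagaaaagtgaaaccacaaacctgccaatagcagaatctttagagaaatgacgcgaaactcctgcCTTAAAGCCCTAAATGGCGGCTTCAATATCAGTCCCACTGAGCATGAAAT
UNC5B-AS1: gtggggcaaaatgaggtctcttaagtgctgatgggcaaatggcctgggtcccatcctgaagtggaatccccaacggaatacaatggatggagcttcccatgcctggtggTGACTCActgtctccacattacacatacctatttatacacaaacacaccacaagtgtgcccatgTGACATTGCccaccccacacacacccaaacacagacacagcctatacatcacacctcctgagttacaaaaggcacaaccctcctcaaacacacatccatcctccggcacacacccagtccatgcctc
The full window of HHIP-AS1 was 71.7% G and C and that of PAXIP1-AS2 36.3%, beside a median of 66.4% over the 182 antisense RNAs and 58.3% over all 27305 genes with a window.

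The core of the ARE, TGACNNNGC, and the AP-1 site written as TGANTCA were searched for on both strands of these windows. Some window of 38 of the 182 antisense RNAs held the ARE letters (20.9%), beside 16.1% of all genes. By window the shares were 18.7% of 225 and 13.3% of 35116. Of the called antisense RNAs with a window, 8 of 18 that fell and 1 of 7 that rose held them, and 29 of the 157 not called. AP-1 letters stood in 12 of the 182 (6.59%, against 9.37% of all genes), and in none of the 182 did both motifs overlap. A match is only a match of letters, and no binding was measured here. Some of the matches in called antisense RNAs are shown with 10 bases on each side and the 9 matching bases in capitals, as read in the direction of the antisense RNA. They lie at chr1:236524532-236524540 (LGALS8-AS1), chr16:28880090-28880098 (ATP2A1-AS1), chr16:2744926-2744934 (SRRM2-AS1, match on the other strand) and chr10:52314339-52314347 (PRKG1-AS1, match on the other strand). The first 3 of these RNAs fell and PRKG1-AS1 rose. The SRRM2-AS1 match lies in the window of another start. The window nearest its main annotated start, chr16:2752551-2752850, held no match. The same was true of FOXP4-AS1, also counted among the 8.
LGALS8-AS1: tgcagtcaaaTGACTCGGCatcctaaaga
ATP2A1-AS1: gtgccctcccTGACCGGGCgccgggctcc
SRRM2-AS1: cacaggccaaGCTGTGTCAggagcatgct
PRKG1-AS1: cggttcggctGCAGAGTCAgggtccggga

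In 9 pairs the antisense RNA and its partner both passed in the same direction. HHIP encodes a membrane protein that binds and holds back hedgehog ligands, and its antisense RNA lies head to head with it at chr4:144642919-144661357. HHIP-AS1 had 0, 0.907 and 0 normalized counts in KYSE70 and 119.7, 148 and 90.2 in NRF2null-KYSE70. In reads this was 1 against 348, a ratio of 383 after scaling for depth (95% exact interval 68.4 to 15188, counting error only). HHIP itself had 0 reads in KYSE70 and 993, 839 and 709 normalized counts in NRF2null-KYSE70, at least 297-fold higher when 3 reads are set in each KYSE70 library. The pair was thus near silent in one line and expressed in the other. In HHIP-AS1, 34.0% of the exon bases face exons on the other strand, where its reads and those of HHIP cannot be told apart.

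SLC44A3, a member of the choline transporter-like family, and SLC44A3-AS1 start within 31 bases of each other on chromosome 1. The antisense RNA rose from 2.67, 11.8 and 10.5 to 152, 147 and 124 (log2 fold change 4.12, limma adjusted p = 5.53e-06, SE 0.45). SLC44A3 read 32.0, 23.6 and 35.9 against 148, 117 and 184 (log2 fold change 2.25). The lines did not overlap in either gene, and the antisense RNA changed more, by 1.87 on the log2 scale (SE 0.48, limma adjusted p = 0.00409).

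TDRKH, a Tudor-domain protein of piRNA maturation, rose 2.03-fold and TDRKH-AS1 4.81-fold. TDRKH-AS1 stood at 12.5, 35.4 and 27.4 in KYSE70 and at 105, 148 and 108 in NRF2null-KYSE70. On the log2 scale this was a rise of 2.32 (limma adjusted p = 0.00011, SE 0.36). ZFPM2-AS1, within and beyond the body of the GATA cofactor gene ZFPM2, went from 23.1, 12.7 and 17.9 to 417, 409 and 479. Its partner read 7.11, 18.1 and 9.49 against 49.7, 41.2 and 25.1, and per kilobase of exon the antisense RNA stood at 2715% of ZFPM2 over the 6 libraries. GLIS3, a zinc-finger transcription factor, shows the reverse order of size. GLIS3-AS1, which lies wholly inside GLIS3 at chr9:3898642-3901248, rose from 533, 484 and 606 to 1411, 1525 and 1518, while GLIS3 went from 191, 142 and 163 to 2708, 2627 and 2537. Unspliced reads of GLIS3 and reads of GLIS3-AS1 cannot be told apart here. The partner's log2 fold change of 3.99 exceeded that of the antisense RNA, 1.46, with a difference of -2.53 (SE 0.12, limma adjusted p = 1.98e-12).

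**Figure D2:**
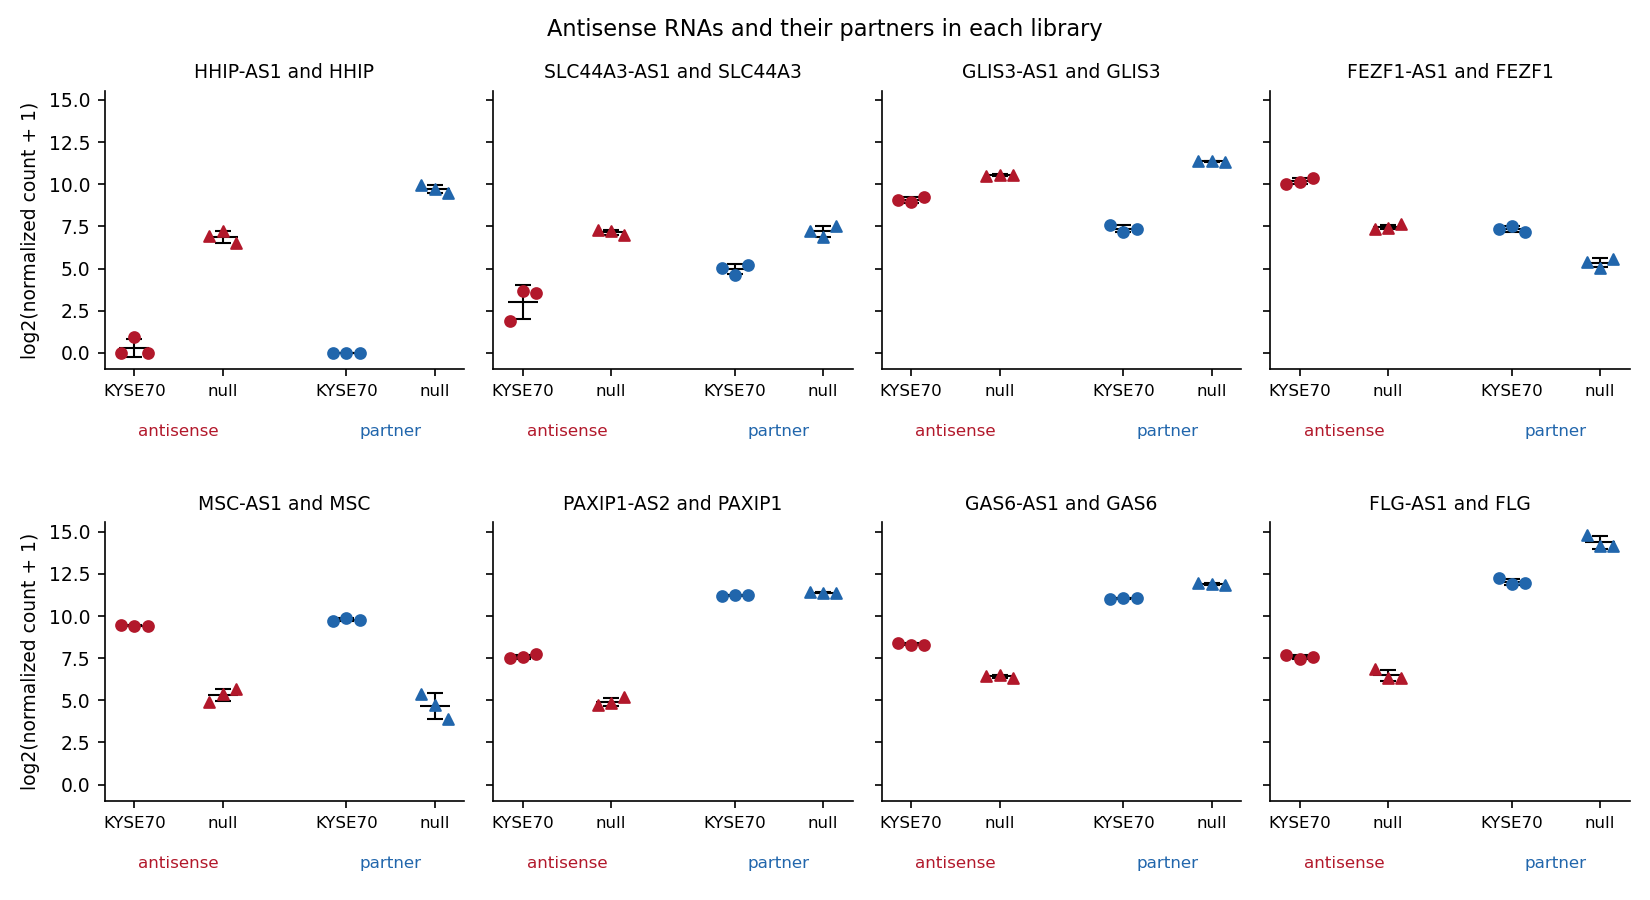
Level of 8 antisense RNAs (red) and their partners (blue) as log2(normalized count + 1) on the y axis, each point 1 library, circles for KYSE70 and triangles for NRF2null-KYSE70 ("null"), with bars for the mean and SD of 3 libraries. In HHIP, SLC44A3 and GLIS3 both genes sit higher in NRF2null-KYSE70, in FEZF1 and MSC both sit lower, and in PAXIP1, GAS6 and FLG the antisense RNA is lower while the partner is not.

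Among the falls, 4 pairs moved together. MSC encodes musculin, a helix-loop-helix repressor, and MSC-AS1 starts 131 bases from it. MSC-AS1 read 707, 678 and 671 in KYSE70 and 29.4, 40.2 and 50.2 in NRF2null-KYSE70, 5.83% of the parental level. MSC fell to 3.01%, from 839.5, 939 and 868 to 40.6, 25.5 and 13.7. Protein-coding genes within 2 Mb had a median log2 fold change of 0.03.

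FEZF1-AS1, beside the forebrain transcription factor gene FEZF1 at chr7:122303658-122310119, stood per kilobase of exon at 436% of its partner. It stood at 1052, 1137 and 1333 in KYSE70 and at 163, 171 and 196 in NRF2null-KYSE70 (log2 fold change -2.72, limma adjusted p = 1.31e-09, SE 0.12). FEZF1 fell from 163, 183 and 146 to 40.6, 32.4 and 46.8, and the difference between both changes, -0.70 (SE 0.25), did not reach a size of 1. The median of the neighbouring genes was -0.77 here.

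INSYN1-AS1, beside the gene of a protein of inhibitory synapses, fell to 18.3% and INSYN1 to 26.6% of the parental level. ZEB1-AS1 and ZEB1, a repressor of epithelial genes, fell by nearly equal amounts, 1.21 and 1.25 on the log2 scale, with a difference of 0.04 (SE 0.40). ZEB1-AS1 had 461, 403 and 525 counts against 193, 183 and 221, and ZEB1 50.7, 58.1 and 66.4 against 30.4, 32.4 and 13.7. Per kilobase of exon the antisense RNA stood at 1768% of its partner over the 6 libraries.

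In most called pairs only the antisense RNA passed both thresholds. Of the 25 falls with a tested partner 20, and of 10 rises 5, had a partner that did not pass. That alone does not show that the pair changed unequally. At an adjusted p under 0.05 with no minimum change, 15 of the 25 falls had a lower partner and 5 a higher one. Of the 10 rises, 7 had a higher partner. PAXIP1 encodes a BRCT-domain protein of the MLL3/MLL4 histone methyltransferase complexes and of DNA repair. PAXIP1-AS2 runs from outside into its far end (chr7:154928460-154952188, with 81.1% of its exon bases inside the partner's body). It fell from 179.6, 189 and 211 to 25.4, 27.5 and 35.4, while PAXIP1 read 2309, 2461 and 2416 against 2755, 2696 and 2620.0. The difference between both changes was -2.85 (SE 0.25, limma adjusted p = 2.08e-08). PAXIP1-AS1, the other antisense RNA of this gene, starts 297 bases from its promoter and showed a log2 fold change of -0.08 (limma adjusted p = 0.451).

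GAS6 is the ligand of the TYRO3, AXL and MERTK receptors. GAS6-AS1 fell from 334, 310.2 and 315 to 87.2, 89.2 and 78.8, and GAS6 itself was 1.78-fold higher, at 2096, 2193 and 2142 against 3972, 3775 and 3689.6. The change of the antisense RNA less that of GAS6 was -2.73 (SE 0.17, limma adjusted p = 7.32e-11). Another transcript of the locus, the divergent GAS6-DT, rose from 75.6, 94.3 and 91.7 to 252, 229 and 169.

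SRRM2-AS1, whose start lies 26 bases from that of the splicing factor gene SRRM2, fell from 111, 129 and 173 to 38.5, 35.3 and 17.1 although SRRM2 showed a log2 fold change of -0.15 (limma adjusted p = 0.117). None of its exon bases face an exon on the other strand. RBMS3-AS3 fell to 24.3%, with RBMS3, an RNA-binding protein gene, at 50.3% of the parental level, just short of the minimum change (log2 fold change -0.99). ATP2A1-AS1 fell from 606, 563 and 608 to 138, 249 and 199.8 and its partner, the muscle calcium pump gene ATP2A1, showed -0.32 (limma adjusted p = 0.295). COA6-AS1, PTOV1-AS2, CCDC183-AS1 and ZNF337-AS1 complete the 12 largest falls, with log2 fold changes of -1.48 to -1.34. Of these 4, the difference from the partner passed in PTOV1-AS2 (-1.28) and CCDC183-AS1 (-1.85).

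On the rising side, VLDLR-AS1 went from 92.5, 92.5 and 108 to 387, 422 and 408, a 4.16-fold change, while VLDLR, a lipoprotein and reelin receptor gene, was 1.72-fold higher. The difference was 1.27 (SE 0.16, limma adjusted p = 4.36e-06). IGFL2-AS1 rose from 102, 103 and 140.2 to 762, 691 and 885. IGFL2, a growth factor-like gene, was nearly silent, with at most 11.6 counts in a library, and was not tested. PRKG1-AS1 rose 2.85-fold, and its partner, a cyclic GMP-dependent kinase gene, read 2.28 to 16.9 counts over the 6 libraries and did not pass. RHPN1-AS1, CYP1B1-AS1 and TMEM51-AS1 rose by 1.25, 1.19 and 1.03 on the log2 scale. Without KYSE70 library 1 the values for RHPN1-AS1 and TMEM51-AS1 were 0.80 and 0.86 and did not pass. TMEM51-AS1 also missed the minimum change without NRF2null-KYSE70 library 3 (0.95), with total scaling (0.96) and at a pseudocount of 5 (0.97).

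In FLG alone the antisense RNA fell and the partner rose past both thresholds. FLG encodes filaggrin, the protein that bundles keratins in the last step of epidermal differentiation. FLG-AS1 read 207, 172 and 191 in KYSE70 and 115, 78.4 and 77.6 in NRF2null-KYSE70. FLG rose from 4872, 3755 and 3928 to 28698, 18179 and 18086. The difference of -3.43 (SE 0.19, limma adjusted p = 9.3e-12) was the most negative of the 40 that passed at the pseudocount of 1. That of HHIP-AS1, whose partner had no KYSE70 read, moved with the pseudocount, from -3.14 to -3.95 at 0.1. The fall of FLG-AS1 itself lay near the minimum change (-1.09), and without NRF2null-KYSE70 library 2 or 3 it was -0.999 and -0.992 and did not pass.

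In other pairs the partner passed and the antisense RNA did not. PXN, the focal adhesion scaffold paxillin, rose 2.52-fold, and PXN-AS1 stood at 54.7% of the parental level (log2 fold change -0.88, limma adjusted p = 0.000321). ENTPD1 (CD39) and ENTPD3 encode ectonucleotidases that break down extracellular ATP. ENTPD3 had 8.89, 28.1 and 42.2 counts in KYSE70 and no read in NRF2null-KYSE70, at least 8.42-fold lower with 3 reads set per library, while ENTPD3-AS1 went from 111, 142 and 202 to 73.0, 66.7 and 82.2. ENTPD1 rose from 6.23, 1.81 and 2.11 to 23.3, 27.5 and 25.1, beside 605, 624 and 529 against 479.8, 504 and 463 for ENTPD1-AS1. ARRDC3, an arrestin-domain gene, fell to 29.7% with ARRDC3-AS1 at 152% (log2 fold change 0.60, limma adjusted p = 0.0348). These 4 pairs and FLG passed the test of the difference, as did 27 pairs in all in which the antisense RNA changed downward relative to the partner and 13 in which it changed upward. The 40 were 19.6% of the 204 pairs, beside 19.9% of the 341 pairs with both means at least 10 (12.9% lower and 7.04% higher). The 341 include the 204, so these shares are not independent, and they are near each other. With no minimum change 110 passed, where 41.1% of the 341 did. The median difference was -0.30 over the 204 and -0.29 over the 341.

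**Figure D3:**
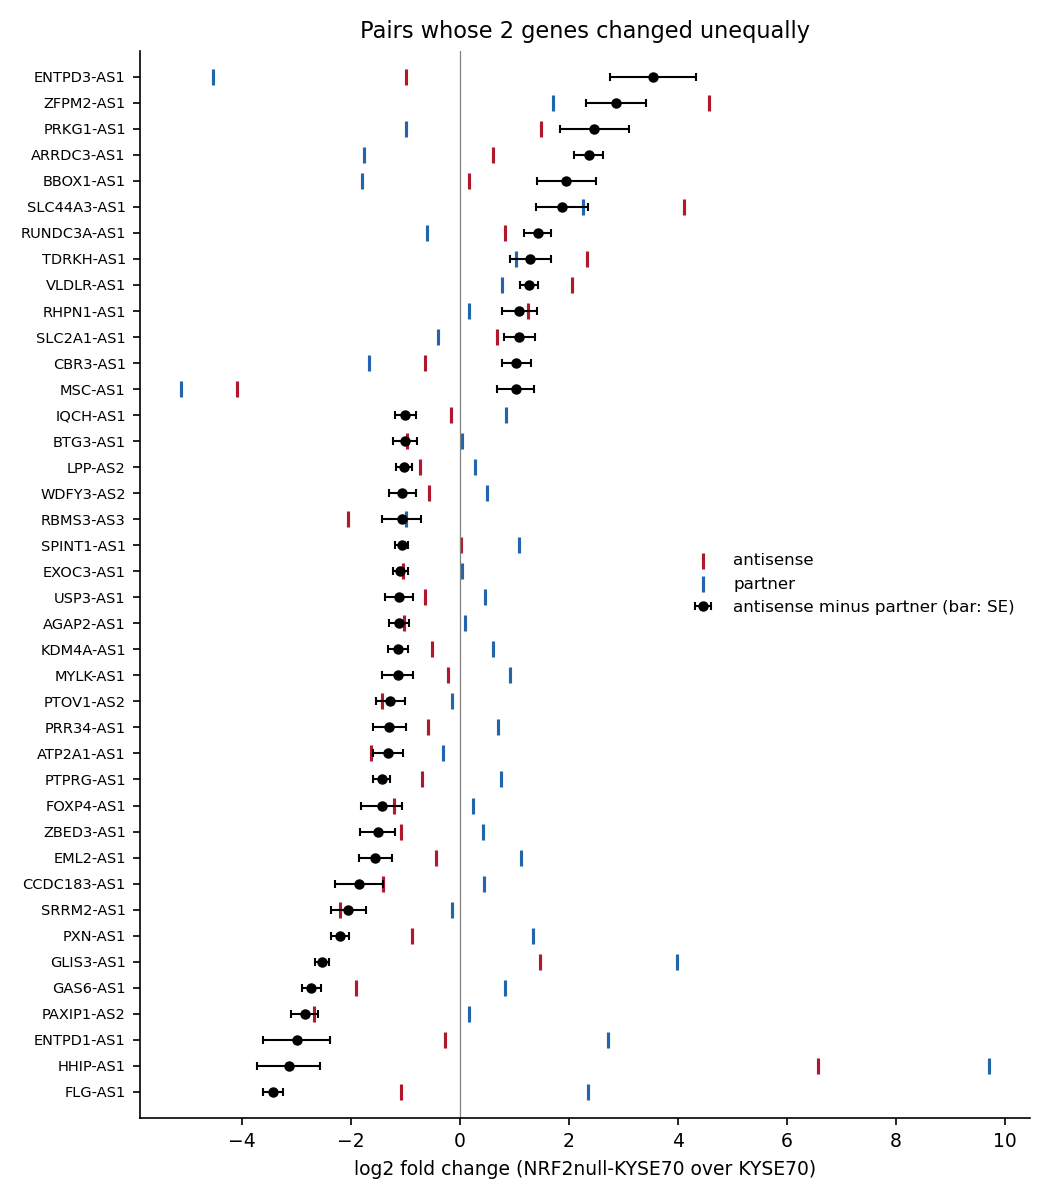
The 40 pairs that passed the test of the difference, 1 per row, with the log2 fold change of the antisense RNA (red tick), of the partner (blue tick) and their difference (black point, bar for the SE) on the x axis. FLG-AS1 lies at -3.43 and 27 of the 40 lie below 0. The position of ENTPD3-AS1, at 3.55, is set by the pseudocount of 1, since ENTPD3 had no NRF2null-KYSE70 read, and was 6.79 at 0.1 and 1.53 at 5.

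Across the 204 pairs, the change of the antisense RNA and that of the partner had the same sign in 110 (53.9%), with a Pearson's r of 0.62 and a Spearman's rho of 0.31, given as description across genes of the same 6 libraries. Without HHIP-AS1 and MSC-AS1 r was 0.39. Head to head pairs, which include HHIP-AS1 and MSC-AS1, had an r of 0.77 and a rho of 0.42 (141 pairs, 80 or 56.7% of the same sign). Pairs with other overlap had 0.22 and 0.07 (60 pairs, 27 of the same sign). For comparison, 768 head to head pairs of protein-coding genes had an r of 0.57, a rho of 0.36 and 61.5% of the same sign. At an adjusted p under 0.05 for both genes, 48 pairs moved the same way, 23 had a lower antisense RNA and a higher partner, and 6 the reverse. Over all 341 pairs these counts were 65, 28 and 8.

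**Figure D4:**
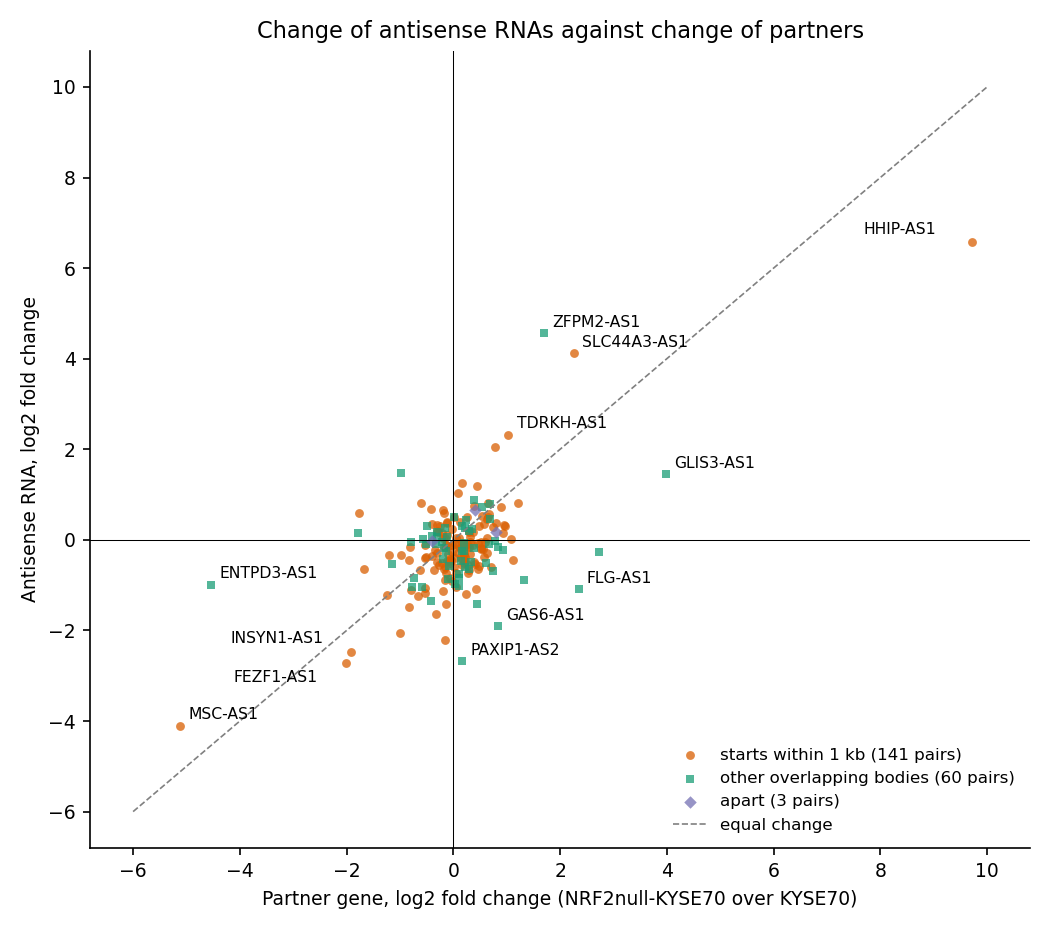
Log2 fold change of the antisense RNA (y axis) against that of the partner (x axis) in 204 pairs, with orange circles for 141 head to head pairs, green squares for 60 with other overlap, purple diamonds for 3 apart, and a dashed line for equal change. HHIP-AS1 and MSC-AS1 lie at both ends, and most pairs cluster near 0 with more points below the x axis than above it.

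Levels spanned a wide range. The 235 RNAs had a median of 166 normalized counts and took 0.220% to 0.256% of the reads of a library, 25 lay at 1000 or more and 68 under 100. LRRC75A-AS1, now named SNHG29 as a host gene of small nucleolar RNAs, and OIP5-AS1 made up 28.8% of the summed counts. LRRC75A-AS1 read 21920.3, 24488 and 26164 in KYSE70 and 25240.5, 30511 and 30847 in NRF2null-KYSE70, ranges that overlap. OIP5-AS1 was higher in each NRF2null-KYSE70 library, 17103, 15581 and 15337 against 11713, 12049 and 11381, 0.45 higher on the log2 scale (limma adjusted p = 8.69e-06, SE 0.051). Less the median change of the protein-coding genes within 2 Mb, OIP5-AS1 was at 0.013 (limma adjusted p = 0.850). FGD5-AS1, the next by count, was lower in each, at 6911, 7244 and 7145 against 11089, 11647 and 10971 (log2 fold change -0.66), with FGD5 under 17 counts in every library. None of the 10 with the highest counts, which also hold WAC-AS1, SVIL-AS1, TMEM132D-AS1, THAP9-AS1, NNT-AS1, NCBP2-AS2 and VPS9D1-AS1, passed the minimum change, and their log2 fold changes lay between -0.66 and 0.76 (THAP9-AS1). Per kilobase of exon, the antisense RNA stood at a median of 15.1% of a tested partner (quartiles 5.06% and 70.2%), and 69 of the 232 exceeded their partner. The 232 include 28 pairs with a partner mean under 10, too low to be tested, whereas every antisense RNA had at least 50.

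Calls were made in 18 of 68 at a mean under 100, 16 of 118 up to 500 and 5 of 49 above, beside 27.6%, 24% and 6.9% of all genes tested at these levels. In 27 of the 235 the mean of 1 line was under 50, and 18 of the 39 calls were among them. By layout, 24 of 147 head to head RNAs and 12 of 81 with other overlap passed. In 133 of the 235, or 56.6%, every library of one line lay above every library of the other, beside 63.4% of all genes tested. Just inside the minimum level were BRWD1-AS2 (52.9), ALOX12-AS1 (53.3) and ZNF710-AS1 (53.3), and just outside ARHGEF26-AS1 (49.7), HOXA-AS2 (49.7) and NDUFV2-AS1 (49.4).

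Partners on a list of NRF2 target and regulator genes were CBR3 and UGDH. CBR3, a carbonyl reductase and NRF2 target, fell from 1264, 1140.2 and 1342 to 375, 383 and 409.8 (log2 fold change -1.68, SE 0.091, limma adjusted p = 8.91e-09). CBR3-AS1, which starts 92 bases from it, read 159, 139.7 and 105 against 112, 90.2 and 60.5 (log2 fold change -0.64, SE 0.25, limma adjusted p = 0.0435), and the ranges overlap. Both changes differed by 1.03 (SE 0.26, limma adjusted p = 0.00373). UGDH-AS1, beside the UDP-glucose dehydrogenase gene, showed -0.10 (SE 0.23) and UGDH -0.13 (SE 0.061), neither past the test.

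Of the antisense RNAs with a body of work of their own, 14 of 24 listed were expressed at this level. Besides GAS6-AS1 and ZEB1-AS1, TMPO-AS1 fell, from 1438, 1490.3 and 1446 to 617, 716 and 715, together with a lower TMPO (log2 fold change -0.79), the gene of nuclear lamina-associated polypeptides. FOXP4-AS1 read 58.7, 85.3 and 83.3 against 45.6, 47.1 and 14.8 (log2 fold change -1.20, SE 0.40, limma adjusted p = 0.0219), and this call was lost without NRF2null-KYSE70 library 3 (-0.68), without KYSE70 library 2 or 3 (limma adjusted p = 0.0854 and 0.0678) and in limma without a trend (adjusted p = 0.0873). KMT2E-AS1 (-0.84) and MCM3AP-AS1 (0.72) had an adjusted p under 0.05 without the minimum change. PSMA3-AS1, NUTM2B-AS1, TP73-AS1, DLX6-AS1, SBF2-AS1 and CDKN2B-AS1 had log2 fold changes of -0.24 to 0.30 and did not pass.

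Related transcripts with other suffixes and the lower antisense rows were read from the same fit. Past both thresholds were 9 of 51 divergent transcripts (-DT), 1 of 7 intronic transcripts (-IT) and 35 of 160 antisense RNAs with means of 10 to 50, beside the background of 14.7%. The medians were 0.05, 0.54 and -0.18. None of 10 RNAs named -AS without a digit (median 0.29) and none of 3 overlapping transcripts (-OT, median -0.56) passed. None of 34 genes of nuclear RNA surveillance (exosome subunits and cofactors, Integrator subunits, the cap-binding complex) passed both thresholds in limma, edgeR or DESeq2. In limma 25 had an unadjusted p under 0.05 and 24 an adjusted one, 11 higher and 13 lower. Over all 15994 genes tested these counts were 9893 and 9206 (57.6%). The largest changes among the 34 were of INTS9 (-0.99), the exonuclease gene XRN2 (-0.65) and the exosome cofactor gene ZCCHC7 (0.53).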

How the data were processed

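Bulk RNA-seq of 3 KYSE70 and 3 NRF2null-KYSE70 libraries was analysed. The authors extracted total RNA, trimmed reads with cutadapt 1.12, checked them with FastQC 0.11.5, aligned them to hg38 with STAR 2.6.90c, counted with featureCounts 1.5.1 and deposited DESeq2-normalized counts per gene, here handled as a signal. Strand and multi-mapping settings are not given in the sources used here. All deposited values were whole multiples of the value of 1 read (0.889 to 1.14, tolerance 0.01), so whole reads were recovered (100% of values).

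Rows with a mean of at least 10 were tested on log2(normalized count + 1) with limma 3.58.1 (trend) in R 4.3.3, two-sided, with the line as the only term and Benjamini-Hochberg adjustment over 15994 rows. A call needed an adjusted p under 0.05 and a log2 fold change of at least 1 in size. Fold changes on this scale understate those of low genes. The per-library difference between antisense RNA and partner was tested likewise over 341 pairs. edgeR 4.0.16 and DESeq2 1.42.0 on recovered reads, other scalings, pseudocounts and filters, leaving out libraries and subtraction of the neighbourhood's median were alternatives. The fits were tested on simulated data. Of 58884 identifiers, 58472 were in GENCODE v44. Intervals cover counting error only. No pair of libraries was a repeat (chi-square per degree of freedom 4.75 to 25.6). NRF2null-KYSE70 library 1 stood apart, at 25.6 and 25.1 from libraries 2 and 3 of its line, which were 4.75 from each other. KYSE70 pairs lay at 6.77 to 13.5. Without NRF2null-KYSE70 library 1, 37 antisense RNAs were called. Columns name a line but no replicate number and were numbered in column order.

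The genes named are up to the 12 largest rises and falls (11 rises passed), the 10 of highest level, those with partners on an NRF2 list, the 8 largest differences from the partner, 3 rows on each side of the minimum level and a list of well-described antisense RNAs, with partners. PXN-AS1, ARRDC3-AS1, UNC5B-AS1, LGALS8-AS1, PAXIP1-AS1, EML2-AS1, GAS6-DT and the RNAs apart from or without a partner row were named after their values were seen. Members, lists and rules were chosen with earlier results of these data known.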

Additional observations from a re-analysis of the deposited data

How the results depend on the processing

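The count of 39 called antisense RNAs was 38 with edgeR, 39 with DESeq2, 34 after quantile normalization, 40 with total scaling and 35 to 39 without 1 library. Against the median of neighbouring protein-coding genes 33 passed, 26 of them among the 39. With no minimum change it was 118, with a minimum level of 100 it was 21 of 167, with 20 it was 63 of 331, and without exons facing another gene's 8 of 43. Partner calls were 20 to 24 without 1 library and 142 with no minimum change. Differences between antisense RNA and partner ranged from 32 to 43 without 1 library, were 110 with no minimum change and 9 among the 53 pairs without exon overlap, and split 16 higher and 21 lower after quantile normalization (13 and 27 as reported). edgeR and DESeq2 were not run on the differences. The 45 calls among -DT, -IT, -OT, -AS without a digit and low antisense rows (19 higher, 26 lower) became 28 without a filter. They became 5 with a filter at 50 (fewer rows tested) and 70 with no minimum change. Without 1 library they were 37 to 47, and after quantile normalization 25 higher and 19 lower. Surveillance genes gave 1 call with total scaling and 1 with quantile normalization, 0 to 1 without 1 library and 24 with no minimum change. NFE2L2 kept its direction, at -0.75 to -0.67 without 1 library.

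Among named RNAs, values that were not past both thresholds changed sign in WAC-AS1 (-0.0881 to 0.0183 without 1 library), TP73-AS1 (-0.121 to 0.0402), CDKN2B-AS1 (-0.220 to 0.142), ZNF710-AS1 (-0.0890 to 0.650), UGDH-AS1 (0.0162, quantile normalization), and TMEM132D-AS1 (0.0434) and CDKN2B-AS1 (0.0148) against neighbouring genes. The same comparison took TMPO-AS1 to -0.75, FLG-AS1 to -0.85, RHPN1-AS1 to 0.78 and TMEM51-AS1 to 0.82, not past both thresholds, and CBR3-AS1 to -1.11 and KMT2E-AS1 to -1.04, past both. It also took MCM3AP-AS1 to 0.17, ENTPD3-AS1 to -0.36 and SVIL-AS1 to 0.085, no longer under an adjusted p of 0.05. ENTPD3-AS1 passed both with edgeR (-1.03), DESeq2 (-1.04) and total scaling (-1.06), FLG-AS1 was at -0.993 after quantile normalization, and KMT2E-AS1 at -1.19 without NRF2null-KYSE70 library 3. The causes were not tested. No paired analysis was possible because column headers name only the cell line, without a replicate number.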
